A study of Mus musculus with 20 samples.

Results

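Cathepsins are the proteases of the lysosome, and cystatin C is a secreted inhibitor of the cysteine cathepsins. The genes described here are 9 cathepsins (*Ctsa*, *Ctsb*, *Ctsc*, *Ctsd*, *Ctsh*, *Ctsk*, *Ctsl*, *Ctss* and *Ctsz*) and *Cst3*, which encodes cystatin C. They were chosen by symbol with earlier results of these data known, and all 10 are among the 16810 genes of the deposited table. Cells with high eGFP were sorted as microglia from adult male CX3CR1+/eGFP mice, which carry the reporter in 1 copy of the *Cx3cr1* gene in every group, and polyadenylated RNA was sequenced. There were 3 control samples from non-injured (NI) mice. Mice with a lateral hemisection (HS) of the thoracic spinal cord were studied after 72 h (3 samples), 1 week (2 samples) and 2 weeks (3 samples). Mice with a full transection (FT) were studied at the same times, with 3 samples each. Cells came from the cord segment around the lesion, or from the equivalent segment in NI. The reporter is also active in blood monocytes, so the sort does not by itself separate microglia from macrophages that entered the lesion. RNA was taken from more mice than there are samples, and how mice were shared among samples is not given in the sources used here.

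Lysosomal proteases cut proteins that cells take up or recycle. Cathepsin D is an aspartic endopeptidase. Cathepsins B, L, S and K are cysteine endopeptidases, cathepsins C, H and Z are cysteine exopeptidases, and cathepsin A is a serine carboxypeptidase that also protects other lysosomal enzymes. Most are made as inactive precursors, are carried to the lysosome by mannose 6-phosphate receptors and are activated at low pH. Cystatin C binds the active site of papain-like cysteine cathepsins and does not block cathepsins D or A. In the central nervous system, microglia are rich in cathepsins S and D, and both microglia and astrocytes make cystatin C.

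Values are normalized reads per gene, on the scale of the deposited table. Each sample held 3.87 to 34.1 mega-reads on the genes of the table (median 10.1 mega-reads), and 1 read was worth 0.0330 in the deepest sample and 0.292 in the shallowest. All members but *Ctsk* lay far above this limit, which covers counting error only. FT 1 week replicate 1 stood apart from the rest of its group, and the values at that time without it are given below the counts of called members. The 9 homeostatic microglia markers summed to 14954 to 18133 in NI and to 10221 to 20486 after injury, and they moved in different directions. At 72 h post-HS *Fcrls* was called higher (1.51 on the log2 scale) and *Tmem119* lower (-1.22), the same 2 markers were called at 72 h post-FT (1.61 and -1.13), and the list median was -0.41 and -0.35.

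The promoters of 8 of the 10 members were matched in RefSeq (build GRCm38.p6, from 250 bases before to 50 bases after the start), with 2 promoters for *Ctsa* and 1 for each of the others. Windows of 30 bases are printed around short motifs known from lysosomal and myeloid genes, to show the letters on which each match rests. The motif TCACGTGA is the extended E-box that transcription factors of the TFEB family recognise in lysosomal genes, and CACGTG is its core. Capitals mark the extended motif in *Ctsd* (99 bases before the start, minus strand, chr7:142387908-142387937) and in *Ctsa* (13 bases before the start of its downstream promoter, plus strand, chr2:164833749-164833778), and the core alone in *Ctsl* (236 bases before the start, minus strand, chr13:64370739-64370768).
Ctsd: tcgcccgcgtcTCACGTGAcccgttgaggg
Ctsa: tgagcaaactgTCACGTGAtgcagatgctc
Ctsl: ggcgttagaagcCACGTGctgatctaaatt
The *Ctsa* window was followed by another extended E-box 4 bases after that start, while the other *Ctsa* promoter (chr2:164832622-164832921), near the start of the annotated gene, held none of the motifs searched, and *Ctsd* held another core 245 bases before it. The starts are those of RefSeq, and the *Ctsd*, *Ctsa* and *Ctsl* windows lie inside the annotated gene spans given below. Over both strands, the core occurred in 3 of the 8 members (*Ctsa*, *Ctsd* and *Ctsl*) and in 9.07% of 15466 promoters of genes in the table. The extended form, which contains the core, occurred in 2 of the 8 and in 1.56% of all promoters.

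A motif of PU.1, a transcription factor that myeloid cells need, was searched as GAGGAAGT on both strands. It occurred in 2 of the 8 members, *Ctsc* and *Ctss*, and in 3.05% of all promoters. In both it was read as ACTTCCTC, its reverse complement, which capitals mark in *Ctsc* (151 bases before the start, plus strand, chr7:88277923-88277952) and *Ctss* (2 bases before the start, plus strand, chr3:95526773-95526802).
Ctsc: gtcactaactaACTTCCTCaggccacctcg
Ctss: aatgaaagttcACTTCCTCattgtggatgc
TGAGTCA, a motif of AP-1, was in 0 of the 8 member promoters and in 4.24% of all. These matches describe letters in the windows and no binding was measured.

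*Cst3* was the gene with the highest value of all 16810 in each of the 3 NI samples, and *Ctsd* was the highest in each of the 17 injured samples. That these 2 genes led was known when the members were chosen, and their places are given as a description. Per kilobase (kb) of exon, which allows levels of different genes to be set side by side, *Cst3* led in the 3 NI samples and in 5 injured samples, and *Ctsd* led in the other 12. In NI, *Cst3* had a mean level of 17440 per kb, followed by *Ctss* at 7710 and *Ctsd* at 5938. *Ctsz* (1421 per kb) and *Ctsb* (766 per kb) came next, then *Ctsa* (298), *Ctsh* (257), *Ctsl* (166), *Ctsc* (110) and *Ctsk* (1.88). *Ctsa* and *Ctsh* were the only neighbours in this order whose NI samples overlapped.

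At 72 h post-HS the order was led by *Ctsd*, with 18144 per kb, over *Cst3* with 8786 and *Ctss* with 8359. The samples of *Cst3* and *Ctss* overlapped, whereas all *Ctsd* samples lay above those of *Cst3*. At 72 h post-FT the first 3 places were the same, with 19978 per kb for *Ctsd*, 8613 for *Cst3* and 8019 for *Ctss*. At 1 and 2 weeks the samples of *Ctsd* and *Cst3*, and of the lower of these and *Ctss*, overlapped after both lesions. Taking the length of the longest transcript in place of all exons changed 20 of the 70 places in the 7 groups.

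**Figure D1:**
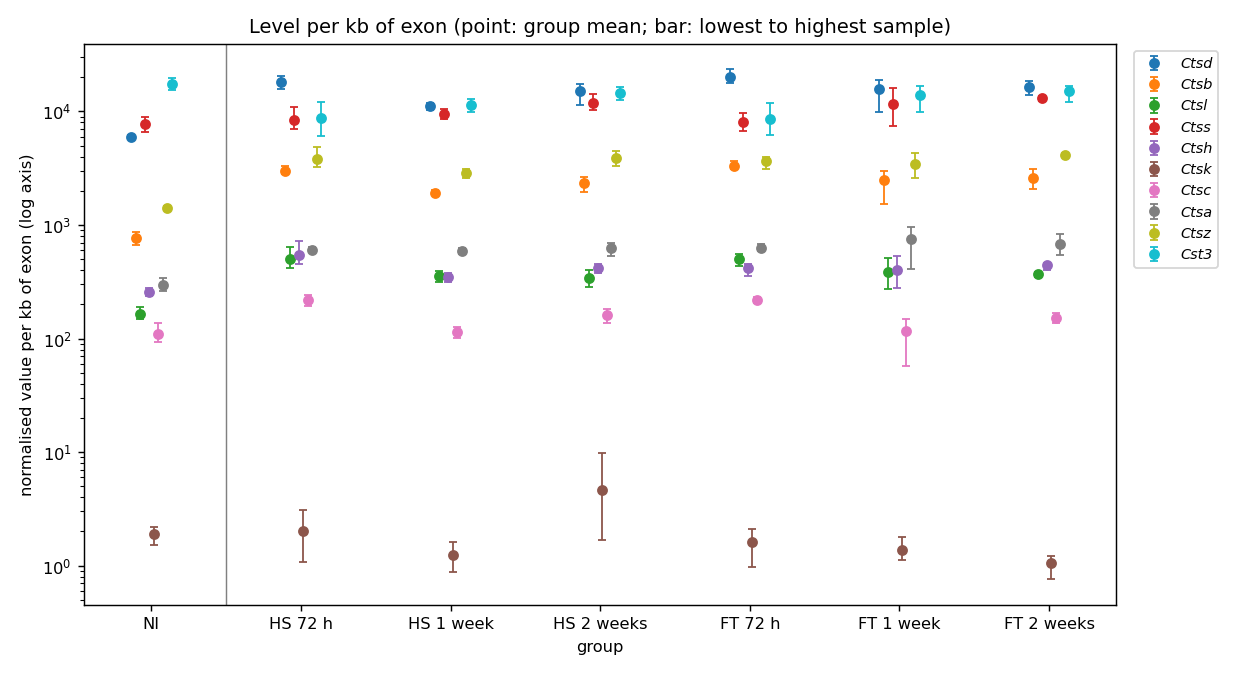
Levels of the 10 members per kb of exon (log axis) in the 7 groups. Points are group means and bars run from the lowest to the highest sample. In NI *Cst3* lies at a mean of 17440 and *Ctsd* at 5938, and at 72 h *Ctsd* lies at 18144 after HS and 19978 after FT, above *Cst3*.

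*Ctsd* encodes cathepsin D (chromosome 7, 142375911 to 142388038, minus strand; GENCODE on GRCm38, as for all positions given). Its values were 14524, 13833 and 13521 in NI, 37128, 47866 and 42975 at 72 h post-HS, 28122 and 24230.1 after 1 week, and 39125, 26592 and 41279 after 2 weeks. Post-FT they were 43802, 42044 and 55056 at 72 h, 23384, 44294 and 43149 after 1 week, and 43699.7, 39501 and 32813 after 2 weeks. All 17 injured samples lay above the highest NI sample, and FT 1 week replicate 1 was the lowest of them. The NI samples differed little from each other, with a mean of 13959 ± 514 (SD, n = 3), against 42656 ± 5376 (n = 3) at 72 h post-HS and 46967 ± 7060 (n = 3) at 72 h post-FT. The log2 fold change from NI was 1.60 (standard error 0.38, adjusted p = 0.00303) at 72 h post-HS, 0.90 (adjusted p = 0.366) at 1 week and 1.33 (adjusted p = 0.0425) at 2 weeks. Post-FT it was 1.74 (adjusted p = 0.00173), 1.35 (adjusted p = 0.0308) and 1.46 (adjusted p = 0.0153). A change was called where the adjusted p of limma (Benjamini-Hochberg over all genes) was under 0.05 and the fold at least 2, so *Ctsd* rose in 5 of 6 comparisons. Both calls at 72 h were kept whichever sample was left out. The others were not: at 2 weeks post-HS the call was lost without NI replicate 1, 2 or 3 or HS 2 weeks replicate 1 or 3 (log2 fold change 1.21 to 1.36, adjusted p 0.11 to 0.162). At 1 week post-FT it was lost without NI replicate 1, 2 or 3 or FT 1 week replicate 2 or 3 (1.19 to 1.38, adjusted p 0.0821 to 0.125), and at 2 weeks post-FT without NI replicate 2 or 3 or FT 2 weeks replicate 1 or 2 (1.37 to 1.45, adjusted p 0.0547 to 0.0648).

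*Ctsb* encodes cathepsin B (chromosome 14, 63122462 to 63145923, plus strand), which cuts inside proteins and also removes dipeptides from their ends. Its values were 5296, 4568 and 4039 in NI, 16953, 20085 and 17472 at 72 h post-HS, 12213 and 11043 after 1 week, and 15110.1, 11836 and 15938 after 2 weeks. Post-FT they were 19256, 19016 and 21940.2 at 72 h, 9255, 18062 and 18245 after 1 week, and 18743, 15583 and 12627 after 2 weeks. Every injured sample lay above every NI sample, and the samples at 72 h were the highest after HS. *Ctsb* had the largest fold change of the members in all 6 comparisons with NI: 3.93, 2.52 and 3.08 at 72 h, 1 week and 2 weeks post-HS, and 4.35, 3.15 and 3.35 post-FT. The log2 fold change at 72 h was 1.98 (standard error 0.32, adjusted p = 9.08e-05) post-HS and 2.12 (adjusted p = 4.65e-05) post-FT. All 6 comparisons were called, and 5 of these calls were kept whichever sample was left out. The exception was 1 week post-HS (1.33, adjusted p = 0.0459), which was lost without any 1 of NI replicates 1, 2 and 3 and HS 1 week replicates 1 and 2 (1.24 to 1.43, adjusted p 0.0811 to 0.305). The gene *Fdft1* overlaps *Ctsb* on the other strand with a mean value of 19.7, and the kit used does not keep the strand of a read.

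*Ctsl* encodes cathepsin L (chromosome 13, 64359337 to 64370890, minus strand), an endopeptidase of broad specificity. Its values were 1235, 972 and 1019.8 in NI, 2912, 4180.5 and 2729.8 at 72 h post-HS, 2051 and 2529 after 1 week, and 1834, 2599.8 and 2252 after 2 weeks. Post-FT they were 2796, 3623 and 3439 at 72 h, 1764, 2444 and 3294 after 1 week, and 2246, 2478 and 2430.0 after 2 weeks. The NI samples and the 17 injured samples did not overlap. The log2 fold change from NI was 1.59 (standard error 0.25, adjusted p = 6.33e-05) at 72 h post-HS, 1.09 (adjusted p = 0.0329) at 1 week and 1.04 (adjusted p = 0.0129) at 2 weeks. Post-FT it was 1.61 (adjusted p = 6.00e-05), 1.18 (adjusted p = 0.00388) and 1.16 (adjusted p = 0.0036), so *Ctsl* rose in all 6 comparisons. Calls were kept whichever sample was left out at 72 h after both lesions and at 2 weeks post-FT. The call at 1 week post-HS was lost without NI replicate 2 or 3 or HS 1 week replicate 1 or 2 (0.94 to 1.24, adjusted p 0.112 to 0.368), and that at 2 weeks post-HS without NI replicate 2 or 3 or HS 2 weeks replicate 2 or 3 (0.93 to 1.03, adjusted p 0.0501 to 0.0776). At 1 week post-FT it was lost without FT 1 week replicate 3 (0.96, adjusted p = 0.035), where the fold fell under 2.

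*Ctss* encodes cathepsin S (chromosome 3, 95526786 to 95556403, plus strand), a cysteine protease that stays active at neutral pH and trims the invariant chain of MHC class II. Its values were 12178, 8965 and 10266 in NI, 9542, 14927 and 9585 at 72 h post-HS, 11598 and 14184 after 1 week, and 13971, 19358 and 15308 after 2 weeks. Post-FT they were 9151, 13026 and 10489 at 72 h, 10176, 15426 and 21668 after 1 week, and 17741, 16833 and 18465 after 2 weeks. The NI samples overlapped with the injured samples at 72 h and 1 week, while all samples at 2 weeks lay above NI after both lesions. The log2 fold change at 72 h was 0.09 (adjusted p = 0.851, 95% interval -0.59 to 0.78) post-HS and 0.05 (adjusted p = 0.925, interval -0.63 to 0.74) post-FT. At 2 weeks it was 0.63 (adjusted p = 0.365, interval -0.06 to 1.31) post-HS and 0.77 (adjusted p = 0.195, interval 0.08 to 1.45) post-FT. No comparison of *Ctss* with NI was called.

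*Ctsk* encodes cathepsin K (chromosome 3, 95499256 to 95509362, plus strand), a collagen-degrading protease best known from osteoclasts. It was the lowest member in every group. Its values were 3.28, 2.96 and 2.30 in NI, 14.8, 3.85 and 2.54 after 2 weeks post-HS, and 1.15 to 4.62 in the other injured samples. HS 2 weeks replicate 1 was thus far above every other sample. No comparison of *Ctsk* with NI was called, and its log2 fold changes ran from -0.69 (2 weeks post-FT, adjusted p = 0.442) to 0.82 (2 weeks post-HS, adjusted p = 0.38). In HS 2 weeks replicate 1, 7 fibroblast markers summed to 95.4, against 18.0 and 13.6 in the other samples of the group, and 5 osteoclast markers to 33.1, against 16.0 and 12.7. Most of these sums was *Col1a1* (30.3) and *Col1a2* (53.8) for fibroblasts and *Acp5* (22.9) for osteoclasts. *Col3a1*, *Dcn*, *Pdgfra* and *Dcstamp* were not above the other samples of the group. The highest fibroblast sum was 121 in HS 72 h replicate 1, which had the next highest *Ctsk* value (4.62), and the highest osteoclast sum was 42.1 in FT 72 h replicate 1, with *Ctsk* at 2.62. The part of such cells in the *Ctsk* value was not tested.

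*Ctsz* encodes cathepsin Z (chromosome 2, 174427493 to 174439039, minus strand), a carboxypeptidase that removes single residues. Its values were 2057, 2098 and 1989 in NI, 4677, 7001 and 4825 at 72 h post-HS, 3754 and 4493 after 1 week, and 5514, 4741 and 6401 after 2 weeks. Post-FT they were 5473, 4459 and 5749.6 at 72 h, 3742, 5023 and 6182 after 1 week, and 6144, 5837 and 5733 after 2 weeks. The NI samples were close together (2048 ± 55.0, SD, n = 3), and all 17 injured samples lay above them. The fold change was 2.64, 2.01 and 2.69 at 72 h, 1 week and 2 weeks post-HS, and 2.54, 2.38 and 2.88 post-FT. *Ctsz* rose in 5 comparisons (adjusted p from 0.00027 at 72 h post-HS to 0.00258 at 1 week post-FT), and each of these calls was kept whichever sample was left out. At 1 week post-HS, with 2 samples, the adjusted p was 0.0592. *Nelfcd* overlaps *Ctsz* on the other strand with a mean value of 49.9.

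*Ctsc* (chromosome 7, 88278085 to 88310888, plus strand) encodes cathepsin C, a dipeptidyl peptidase that activates serine proteases of immune cells. Its values were 795, 579 and 542 in NI, 1396, 1254 and 1122 at 72 h post-HS, and 1226, 1354 and 1199 at 72 h post-FT. All samples at 72 h lay above NI. Later values ran from 585 to 1047 post-HS and from 329.5 to 974 post-FT, and 13 of the 17 injured samples lay above all NI samples. The log2 fold change at 72 h was 0.99 (adjusted p = 0.00971) post-HS and 1.00 (adjusted p = 0.0103) post-FT, both just under the 2-fold limit, and -0.02 to 0.57 later. *Ctsc* passed the fold limit at 72 h post-HS without NI replicate 1 (1.16, adjusted p = 0.00847) or HS 72 h replicate 3 (1.07, adjusted p = 0.0152). It did so at 72 h post-FT without NI replicate 1 or FT 72 h replicate 1 or 3 (1.02 to 1.17, adjusted p 0.00922 to 0.0271).

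*Ctsh* (chromosome 9, 90054152 to 90076089, plus strand) encodes cathepsin H, an aminopeptidase. Its values were 1265, 1134 and 1070.1 in NI, 2025, 3238 and 2023 at 72 h post-HS and 2023, 1605 and 2003 at 72 h post-FT, and 16 of the 17 injured samples lay above NI. It rose at 72 h post-HS (log2 fold change 1.04, standard error 0.24, adjusted p = 0.00258). The call was lost without NI replicate 3 (0.98, adjusted p = 0.016) or HS 72 h replicate 2 (0.81, adjusted p = 0.024), the highest *Ctsh* sample. At 72 h post-FT (0.69, adjusted p = 0.0376) and at 2 weeks post-FT (0.78, adjusted p = 0.0464) the change was under 2-fold. In the other 3 comparisons it was 0.43 to 0.71, with an adjusted p of 0.0977 to 0.568.

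*Ctsa* (chromosome 2, 164832873 to 164841032, plus strand) encodes cathepsin A, or protective protein, which stabilises β-galactosidase and neuraminidase in the lysosome. Its values were 1621, 1360.5 and 1230.5 in NI, 2773, 3011 and 2763 at 72 h post-HS and 2811, 2778 and 3209.7 at 72 h post-FT. Later values ran from 2509.8 to 3271 post-HS and from 1941 to 4553 post-FT, and all 17 injured samples lay above NI. The log2 fold change was 1.03 (adjusted p = 0.00787) at 72 h, 0.99 (adjusted p = 0.0953) at 1 week and 1.09 (adjusted p = 0.02) at 2 weeks post-HS. Post-FT it was 1.07 (adjusted p = 0.00665), 1.26 (adjusted p = 0.00531) and 1.18 (adjusted p = 0.00712), so *Ctsa* rose in 5 comparisons. The call was lost at 72 h post-HS without NI replicate 3 (0.94, adjusted p = 0.0431) or HS 72 h replicate 2 (0.99, adjusted p = 0.0295), and at 72 h post-FT without NI replicate 3 (0.98, adjusted p = 0.0376). At 2 weeks post-HS it was lost without NI replicate 2 or 3 or HS 2 weeks replicate 1 or 3 (1.00 to 1.07, adjusted p 0.0816 to 0.103). *Neurl2* (mean value 6.48) and *Pltp* (37.9) overlap *Ctsa* on the other strand.

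*Cst3* (chromosome 2, 148871722 to 148875692, minus strand) encodes cystatin C, the secreted inhibitor, and was lower than NI at 72 h. Its values were 21888, 19555 and 24794 in NI, 7700.1, 15175 and 10494 at 72 h post-HS, 12414 and 16285 after 1 week, and 16008, 18098 and 20629 after 2 weeks. Post-FT they were 7853, 15155 and 9704 at 72 h, 21315, 12466 and 19132 after 1 week, and 15212, 21409 and 20329 after 2 weeks. All samples at 72 h lay below all NI samples, as did both at 1 week post-HS, while the groups overlapped with NI at 2 weeks and at 1 week post-FT. The mean was 22079 ± 2625 (SD, n = 3) in NI, 11123 ± 3777 (n = 3) at 72 h post-HS and 10904 ± 3796 (n = 3) at 72 h post-FT. At 2 weeks it was 18245 ± 2314 (n = 3) post-HS and 18983 ± 3311 (n = 3) post-FT. *Cst3* was 2.05 times lower than NI at 72 h post-HS (log2 fold change -1.04, standard error 0.35, adjusted p = 0.0339) and 2.09 times lower at 72 h post-FT (-1.07, adjusted p = 0.0323). The later changes were -0.63 and -0.28 post-HS and -0.35 and -0.23 post-FT, with adjusted p of 0.578 to 0.799. Both calls at 72 h were lost when single samples were left out. Post-HS the call was lost without NI replicate 1, 2 or 3 or HS 72 h replicate 1 or 3 (-1.12 to -0.80, adjusted p 0.0606 to 0.164), and post-FT without NI replicate 1, 2 or 3 or FT 72 h replicate 1 or 3 (-1.15 to -0.86, adjusted p 0.0588 to 0.141). On the recovered reads the change at 72 h post-HS was just under 2-fold by the quasi-likelihood test of edgeR (-0.99, adjusted p = 0.0142) and by DESeq2 (-0.96, adjusted p = 0.00292). In these bulk samples, fewer cells of a type and less RNA per cell cannot be told apart.

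**Figure D2:**
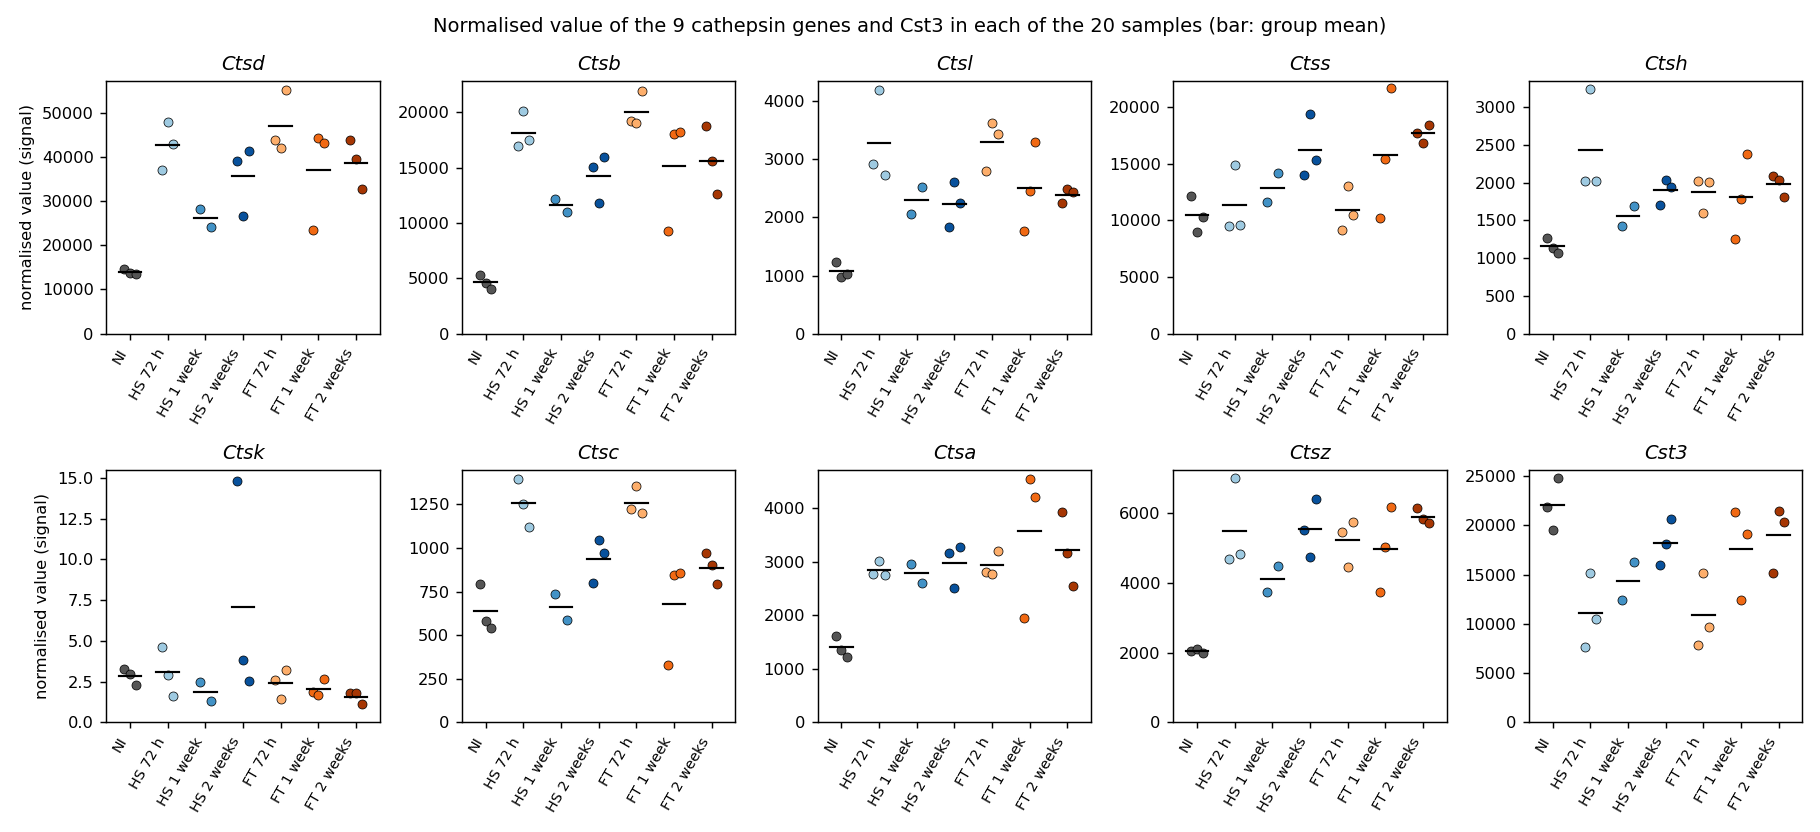
Value of each member in every sample by group. Points are samples and bars are group means, on linear axes from 0. *Ctsa*, *Ctsb*, *Ctsd*, *Ctsl* and *Ctsz* have all 17 injured samples above the 3 NI samples, and *Cst3* has 13 injured samples below them.

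Of the 10 members, 6 were called higher and 1 lower at 72 h post-HS, where 9.08% of all genes were called higher and 4.31% lower. At 1 week post-HS 2 were higher and 0 lower (1.7% and 0.482% of all genes), and at 2 weeks 5 were higher and 0 lower (2.43% and 0.797%). Post-FT 5 members were higher and 1 lower at 72 h (8.14% and 4.09% of all genes), 5 and 0 at 1 week (2.86% and 1.2%), and 5 and 0 at 2 weeks (3.53% and 1.36%). On the deposited scale, the share of members called higher was above the background in each comparison. The members were chosen with earlier results of these data known, so this is a description and no test of the group. The background covers genes of every level. The 1 member called lower, *Cst3*, was 1 of 10 at 72 h. The comparisons share the NI samples and are not independent of each other.

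Samples that did not overlap with NI were counted as well. All samples lay above NI for 7 members at 72 h post-HS (24% of all genes), 6 after 1 week (20.2%) and 8 after 2 weeks (14.5%). Post-FT this held for 7 members at 72 h (22.2%), 5 after 1 week (11.4%) and 7 after 2 weeks (17.3%). All samples lay below NI for 1 member at 72 h post-HS (24.9% of all genes) and 1 at 1 week (17.1%), which was *Cst3*. Post-FT it was *Cst3* at 72 h (22.7%) and *Ctsk* at 2 weeks (13.3%). The share of members above NI exceeded the background throughout, and that below it did not. This too describes members chosen with earlier results known. The median log2 fold change of the members was 1.03, 0.67 and 0.93 at 72 h, 1 week and 2 weeks post-HS, against -0.11, 0.02 and -0.01 over all genes. Post-FT it was 1.03, 0.89 and 0.97, against -0.09, -0.03 and -0.02.

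Without FT 1 week replicate 1, the members called at 1 week post-FT numbered 5 as before, and the median log2 fold change of all 10 members was 1.12. This sample was the lowest injured sample for *Ctsa*, *Ctsb*, *Ctsc*, *Ctsd*, *Ctsh*, *Ctsl* and *Ctsz*. Without it the log2 fold change at 1 week post-FT was 1.98 for *Ctsb*, 1.65 for *Ctsd*, 1.65 for *Ctsa*, 1.41 for *Ctsl* and 1.44 for *Ctsz*. It was 0.84 for *Ctsh* (adjusted p = 0.0148, under 2-fold), 0.82 for *Ctss* (adjusted p = 0.0763), 0.43 for *Ctsc* (adjusted p = 0.137), -0.33 for *Ctsk* (adjusted p = 0.712) and -0.51 for *Cst3* (adjusted p = 0.366), none of them called.

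**Figure D3:**
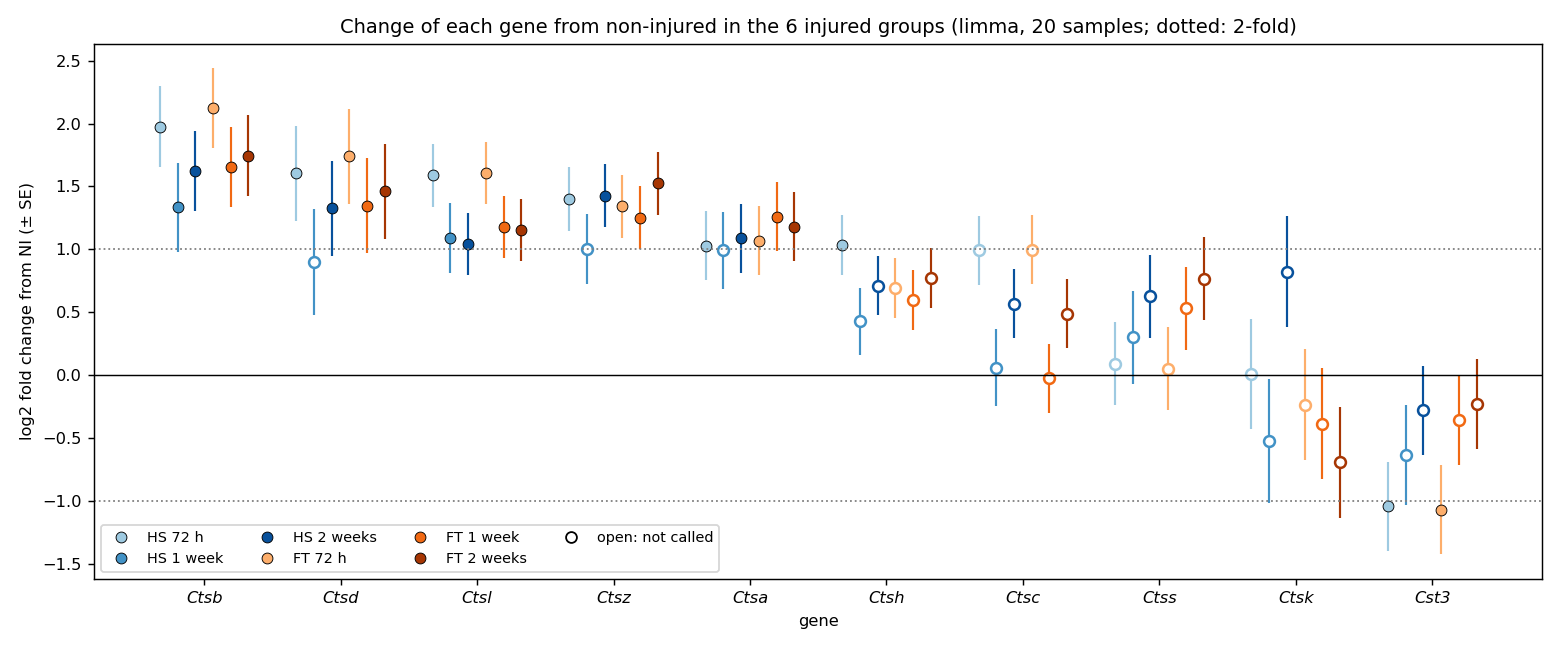
Log2 fold change of each member from NI in the 6 injured groups. Bars are standard errors from limma, filled points are called changes, open points are not, and dotted lines mark 2-fold. *Ctsb* lies highest in every group (1.33 to 2.12), *Ctss* and *Ctsk* have no called change, and *Cst3* lies below 0 in every group (-1.07 to -0.23).

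The size of these changes depended on how the samples were scaled. The deposited columns add up to 777426 to 830481 in NI and to 878070 to 1202190 after injury, because the authors' factors keep most genes level. Scaling each column to 1 total lowered the log2 fold change of the median gene to -0.52 at 72 h post-HS and -0.48 at 72 h post-FT, and the genes called at 72 h post-HS were then 619 higher and 3193 lower, against 1526 and 724. On that scale *Ctsb* was at 1.47 post-HS and 1.65 post-FT, *Ctsd* at 1.10 and 1.27, *Ctsl* at 1.08 and 1.14, and *Cst3* at -1.55 and -1.54. Relative to the median gene these values were 1.99 and 2.13 for *Ctsb*, 1.62 and 1.75 for *Ctsd*, 1.60 and 1.62 for *Ctsl*, and -1.02 and -1.06 for *Cst3*. *Ctss* at 72 h was at -0.41 and -0.42 on that scale, on the other side of 0 from its values of 0.09 and 0.05 on the deposited scale. Quantile normalization, which gives every sample the same set of values, placed *Ctsb* at 1.22 and 1.15 at 72 h. It placed *Ctsd* at 0.89 in all 6 comparisons, which is a ceiling, since the top gene of a sample can take no higher value, and its change cannot be read on that scale. *Ctss* was at -0.55 and -0.51 there, and *Cst3* was at -1.91 and -1.94. *Cst3* was thus below NI at 72 h, and *Ctsb* and *Ctsl* above it, on each scale. *Ctsz* was under 2-fold with columns scaled to 1 total at 72 h post-HS (0.89) and post-FT (0.87) and at 1 week post-FT (0.91). On that scale *Ctsa* was under 2-fold in all 5 comparisons where it had been called, from 0.52 at 72 h post-HS to 0.91 at 1 week post-FT. *Ctsl* was under 2-fold at 1 and 2 weeks after both lesions (0.72 to 0.88), and *Ctsh* at 72 h post-HS (0.53). *Ctsd* at 1 week post-FT was just under it (0.9998).

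**Figure D4:**
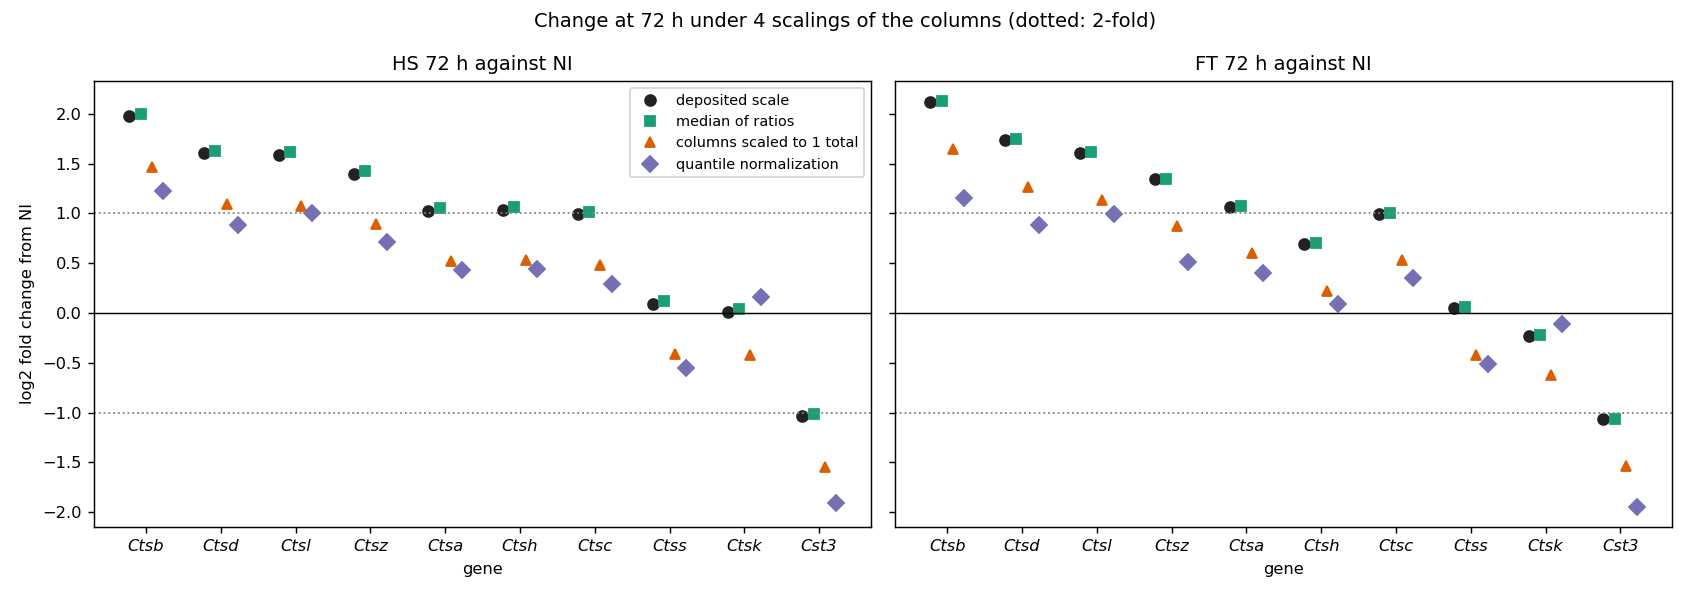
Log2 fold change of the members from NI at 72 h after HS and FT, on the deposited scale, with median-of-ratios scaling, with columns scaled to 1 total and with quantile normalization. Dotted lines mark 2-fold. *Cst3* stays below 0 (-1.04 and -1.07 as deposited, -1.91 and -1.94 with quantile normalization), and *Ctss* changes side (0.09 and 0.05 as deposited, -0.41 and -0.42 with columns scaled to 1 total).

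A ratio of 2 genes within a sample does not depend on the scaling of the sample. The summed value of the 9 cathepsins was 1.36 to 1.78 times that of *Cst3* in NI, 6.69 to 10.1 times at 72 h post-HS and 5.80 to 11.0 times at 72 h post-FT. All samples at 72 h lay above NI. At 72 h post-HS *Ctsd* alone took a mean of 3.76% of reads, and the 9 cathepsins together took 7.70%. That *Cst3* led in NI and *Ctsd* after injury was known when the genes were chosen. The summed ratio shares these genes and is given as a description. At 1 and 2 weeks the ratio was 3.77 to 5.06 and 3.91 to 5.08 post-HS, and 2.43 to 7.42 and 3.80 to 6.28 post-FT, still above every NI sample. Without FT 1 week replicate 1 the lowest ratio at 1 week post-FT was 5.23, and the group mean was 3.91 times the NI mean. The group mean was 5.09 times the NI mean at 72 h post-HS and 5.66 times at 72 h post-FT, and 2.72 to 3.11 times later. With values per kb, these ratios were 4.33, 4.76 and 2.50 to 2.82 times NI. Leaving out any 1 sample kept the ratio at 72 h at 4.53 to 5.57 times NI post-HS and 5.08 to 6.69 times post-FT. The ratio shows unequal change, and it does not tell which of the genes moved.

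The ratio of *Ctsd* to *Cst3* was 0.545 to 0.707 in NI, 3.15 to 4.82 at 72 h post-HS, 2.77 to 5.67 at 72 h post-FT and 1.10 to 3.55 later. That of *Ctsb* to *Ctss* was 0.393 to 0.510 in NI, 1.35 to 2.10 at 72 h and 0.611 to 1.17 at 1 and 2 weeks. The ratio of *Ctsd* to *Cst3* restates which of these genes led in NI and after injury, which was known when the genes were chosen. For *Ctsb* to *Ctss*, the samples at 72 h and those in NI did not overlap. The 10 members took 6.83 to 7.50% of all reads in NI and 7.56 to 10.6% after injury (median 9.71%). *Ctsd* alone took 1.73 to 1.78% of reads in NI and 2.66 to 4.96% after injury, and *Cst3* took 2.52 to 3.18% and 0.684 to 2.43%.

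**Figure D5:**
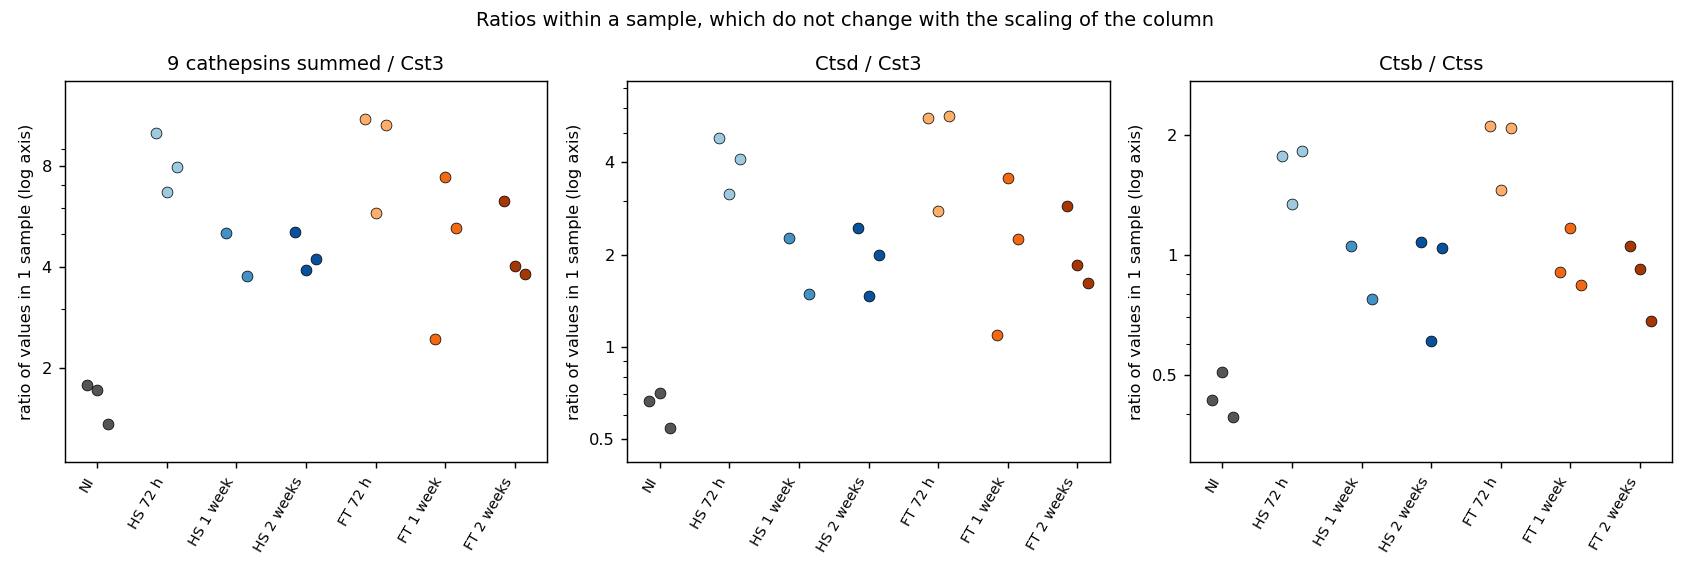
Ratios of members by group (log axis), with a point for each sample: the 9 cathepsins to *Cst3*, *Ctsd* to *Cst3*, and *Ctsb* to *Ctss*. The cathepsins to *Cst3* ratio is 1.36 to 1.78 in NI, 5.80 to 11.0 at 72 h after either lesion and 2.43 to 7.42 later.

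Comparing FT with HS asks whether a more severe lesion gave a different response. No member was called at 72 h, 1 week or 2 weeks (0 of 10 at each time), and 0% of all genes were called in either direction at 72 h, 0% at 1 week and 0% at 2 weeks by limma. At an unadjusted p under 0.05 there were 505, 724 and 438 genes, and 0, 0 and 1 members. The quasi-likelihood test of edgeR called 0 genes at each time, its likelihood ratio test 0, 8 and 1, and DESeq2 0, 7 and 1, none of them a member. At 72 h the difference was 0.14 for *Ctsb* (95% interval -0.52 to 0.81), 0.14 for *Ctsd* (-0.64 to 0.92) and -0.03 for *Cst3* (-0.77 to 0.71), on the log2 scale. At 1 week the interval was -0.42 to 1.06 for *Ctsb* and -0.43 to 1.32 for *Ctsd*. Without FT 1 week replicate 1 the difference at 1 week was 0.64 for *Ctsb* (adjusted p = 0.355) against 0.32 with it, and 0.74 for *Ctsd* (adjusted p = 0.381) against 0.44, and 0 members were called. Differences within these intervals were not detectable with this number of samples. The member at an unadjusted p under 0.05 was *Ctsk* at 2 weeks, with -1.51 (95% interval -2.43 to -0.60, unadjusted p = 0.00249, adjusted p = 1.00), and without HS 2 weeks replicate 1 it was at -0.82.

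Times were compared within each lesion. The 1 member called was *Ctsc*, which fell by 1.02 on the log2 scale between 72 h and 1 week post-FT (standard error 0.27, adjusted p = 0.0291), where 2.62% of all genes were called lower. Its values were 1226, 1354 and 1199 at 72 h and 329.5, 847 and 854 after 1 week, so that no samples overlapped and FT 1 week replicate 1 was the lowest. Without that sample the difference was -0.56 (adjusted p = 0.0927), and the call was also lost without FT 72 h replicate 1, 2 or 3 (-1.05 to -0.97, adjusted p 0.0603 to 0.0925). The corresponding difference post-HS was -0.93 (adjusted p = 0.057).

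No other member was called between times by limma. The background was 6.03% of all genes called in either direction between 72 h and 1 week post-HS, 4.74% between 72 h and 2 weeks and 0.0119% between 1 and 2 weeks. Post-FT it was 3.81% between 72 h and 2 weeks and 0.0714% between 1 and 2 weeks. Members at an unadjusted p under 0.05 numbered 2, 2 and 1 in the HS comparisons and 2 and 0 in these FT comparisons, and edgeR and DESeq2 called 0 members in each. *Cst3* was higher at 2 weeks than at 72 h by 0.84 on the log2 scale post-FT (95% interval 0.10 to 1.58, adjusted p = 0.186), which did not pass the threshold.

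Related genes were taken from lists, and listed symbols absent from the deposited table are not counted. Of 4 other cathepsins in the table (*Ctse*, *Ctsf*, *Ctso* and *Ctsw*), only *Ctse*, an aspartic protease of endosomes, was called. It was higher in all 6 comparisons, most at 2 weeks post-FT (mean value 4.82 in NI and 30.5, log2 fold change 2.51, adjusted p = 1.57e-06). Of 3 other cystatins and stefins from the list that were in the table, 2 were called. *Cst7*, which encodes cystatin F, an inhibitor that acts inside the endosomes and lysosomes of immune cells, rose in all 6 comparisons, with a mean value of 26.4 in NI and 710.1 at 2 weeks post-FT (4.75, adjusted p = 5.33e-11). *Cstb*, the cytosolic inhibitor cystatin B, rose in 5 comparisons, most at 72 h post-FT (from 73.6 to 275, 1.82, adjusted p = 1.57e-05). The inhibitor genes *Cst7* and *Cstb* thus rose at 72 h, where *Cst3* was lower.

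Of 13 genes for processing, sorting and partner proteins, 2, 1 and 4 were called higher post-HS and 4, 3 and 4 post-FT, and 0 lower. *Grn*, whose product progranulin is cut to granulins in the lysosome, rose most at 72 h post-FT (1.69, adjusted p = 5.69e-05). *Igf2r*, a mannose 6-phosphate receptor, rose most at 2 weeks post-FT (2.10, adjusted p = 2.83e-05), as did *Gnptab* (1.36, adjusted p = 7.26e-06), which makes the mannose 6-phosphate tag. *Glb1*, the β-galactosidase that cathepsin A stabilises, rose most at 72 h post-FT (1.61, adjusted p = 2.18e-06). The list median was 0.57, 0.31 and 0.34 post-HS and 0.59, 0.37 and 0.51 post-FT.

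Of 14 other lysosomal enzymes, 6, 1 and 6 were called higher post-HS and 7, 5 and 6 post-FT, and 0 lower. *Gusb*, β-glucuronidase, rose most at 72 h post-HS (2.07, adjusted p = 1.46e-06). *Lipa*, acid lipase (1.24, adjusted p = 0.000317) and *Ppt1*, a thioesterase (1.07, adjusted p = 0.000717), rose most at 72 h post-FT. *Gla*, α-galactosidase (1.84, adjusted p = 3.77e-05), and *Gaa*, α-glucosidase (1.16, adjusted p = 0.000293), rose most at 2 weeks post-FT. So did *Npc2*, counted in this list, which carries cholesterol out of lysosomes (1.50, adjusted p = 9.23e-05). The list median was 0.93, 0.51 and 0.77 post-HS and 0.95, 0.80 and 0.74 post-FT.

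Of 6 genes of the invariant chain and MHC class II, whose products cathepsin S serves, 0 were called higher against NI. The list median was -0.69, -0.43 and 0.42 post-HS and -0.52, -1.14 and 0.05 post-FT. Between 72 h and 2 weeks post-HS, 3 of the 6 were called higher (list median 1.44), as were 230 of all 16810 genes. Post-FT, 0 of the 6 were called higher between these times (list median 0.31), and 190 of all genes were. *H2-Eb1* was called lower at 72 h post-HS and most at 1 week post-FT (-1.53, adjusted p = 0.0143). Of 6 regulators of lysosomal genes, only *Tfec*, of the TFEB family, was called, at 72 h after both lesions, most post-HS (mean value 0.454 in NI and 3.90, log2 fold change 2.05, adjusted p = 0.00237). The list median of the regulators was -0.19, -0.03 and -0.04 post-HS and -0.22, -0.06 and 0.04 post-FT.

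Markers of other cells changed between the same groups, and not all in the direction of the members. The 7 oligodendrocyte markers summed to 1139 to 2324 in NI and to 382 to 2436 after injury, and 0 of them were called against NI. The 9 monocyte and macrophage markers in the table summed to 55.6 to 57.5 in NI, 604 to 772 at 72 h post-HS, 537 to 1280.1 at 72 h post-FT and 209 to 480 later. At 72 h, 5 of 9 post-HS and 7 of 9 post-FT were called higher, and 1 of 9 in each later comparison. After injury most of the sum was *Fn1*, which many cells make and which was 438 to 684 at 72 h post-HS. In NI *Fn1* was 11.4 to 13.9 and was not most of the sum. *Ccr2* was 14.6 to 20.1 in NI, 34.6 to 100.3 at 72 h post-HS and 57.0 to 166.1 at 72 h post-FT. *Ly6c2* was 0.772 to 1.63 in NI and 0.0936 to 6.13 after injury. The 8 border macrophage markers summed to 197 to 217 in NI, 229 to 419 at 72 h, 158 to 358 at 1 week and 107 to 163 at 2 weeks, and moved in both directions. Post-HS 3, 2 and 2 of them were called higher and 0, 2 and 5 lower at 72 h, 1 week and 2 weeks, and post-FT 3, 3 and 3 higher and 2, 3 and 5 lower. None of the listed markers was at 3 reads or fewer in every sample. The 6 astrocyte markers summed to 273 to 421 in NI, 245 to 467 at 72 h post-HS and 398 to 584 at 72 h post-FT, and they too moved in both directions. At the 3 times 1, 0 and 0 of them were called higher and 2, 2 and 3 lower post-HS, and 2, 1 and 0 higher and 1, 2 and 3 lower post-FT. At 72 h post-HS *Slc1a2* was at 29.2, 23.2 and 17.8, against 152, 99.9 and 87.4 in NI (-2.24, adjusted p = 0.00114), and *Gfap* was at 330.3, 184.5 and 134, against 52.6, 54.6 and 28.3 (2.20, adjusted p = 4.01e-05). The part of macrophages and astrocytes in the member changes, that of *Cst3* included, was not tested.

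The genes whose levels across the 20 samples were most like those of *Cst3*, *Ctsb* and *Ctsd* were named by Pearson r of log2 values, among genes with a mean of at least 10. They were *5530401A14Rik* (0.919), *Malat1* (0.875) and *Snhg12* (0.872) for *Cst3*. For *Ctsb* they included *Ctsd* (0.986) and *Grn* (0.973), and for *Ctsd* they were *Ctsb* (0.986), *Grn* (0.967) and *Glb1* (0.966). The points share the difference between NI and injury and the same scaling. Over the 17 injured samples alone, 1 of the 3 genes for *Cst3* and 1 for *Ctsd* were again the most alike. *Ctsb* and *Cst3* had r = -0.592 over 20 samples and -0.493 over the 17, and *Ctss* and *Cst3* had 0.424 and 0.716.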

How the data were processed

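The deposited signal is the normalized read number per gene. Per the submitters' processing notes, reads were mapped with TopHat2 2.0.9 to mm10 (GRCm38), counted per gene with HTSeq 0.5.4p3 and normalized with edgeR 3.3.6. Genes below 10 reads, or reaching it in fewer than 2 replicates, were dropped by the authors. The authors divided reads by the depth of the library and its edgeR factor, so 100% of 336200 values were whole reads within 0.001 read once the step of the column was found. The count tests used these recovered reads.

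Log2 of the value plus 0.5 was fitted with limma 3.58.1 (R 4.3.3) with an intensity trend, 1 mean per group, all 20 samples and 16810 genes, in 15 comparisons. A fold change is on this log2 scale and understates changes of low genes. Calls needed a change of at least 2-fold and an adjusted p (Benjamini-Hochberg, all genes) under 0.05. Intervals are 95% and unadjusted. Alternatives were 0.1 or 1 added, a filter on low values, only the samples compared, other scalings, a replicate block, edgeR 4.0.16 and DESeq2 1.42.0, and leaving out each sample. The fits were also tested on simulated data.

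Levels per kb used exon lengths of GENCODE vM21. The members and all gene lists were chosen with earlier results of these data known. All 10 members were named in every comparison. Genes of the related lists were named where called in at least 1 of the 6 comparisons with NI, with their largest change, and the 3 most alike genes by r. A gene that these rules name is not reported here. Cell type markers entered as sums. The markers *Fn1*, *Ccr2*, *Ly6c2*, *Fcrls*, *Tmem119*, *Slc1a2* and *Gfap* were named after their values were seen. So were *Col1a1*, *Col1a2*, *Acp5*, *Col3a1*, *Dcn*, *Pdgfra* and *Dcstamp*.

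Replicate numbers were taken as pairs where deviations of same-numbered samples correlated above 0.1 in at least 3 pairs. This held only for FT against HS at 72 h (0.143 to 0.267 in all 3 pairs). Comparisons with HS 1 week had 2 pairs and could not pass. There the correlations were 0.151 to 0.251 against HS 72 h and 0.102 to 0.182 for HS 2 weeks. They were -0.110 to 0.138 against NI and -0.390 to -0.299 for FT 1 week. The p-values measure the spread between these samples.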

Additional observations from a re-analysis of the deposited data

How the results depend on the processing

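No called change of a member reversed under any alternative run. With columns scaled to 1 total, members called higher against NI at 72 h, 1 week and 2 weeks numbered 3, 1 and 3 post-HS. Of all 16810 genes, 619, 217 and 244 were called higher there. Post-FT the members numbered 3, 1 and 3 (620, 236 and 287 of all genes). With quantile normalization they numbered 2, 0 and 1 post-HS (1111, 300 and 389 of all genes). Post-FT they then numbered 1, 0 and 0 (1039, 406 and 480 of all genes). On that scale 1 member (*Cst3*) was called lower at 1 and at 2 weeks post-FT (242 and 265 of all genes). Where 0 members were called higher, their share was below that of all genes. *Cst3* was not called at 72 h post-HS (0 members lower) by either edgeR test or by DESeq2. At 1 week post-HS 1 member was higher with 1 added, with median-of-ratios scaling and with a replicate block, and 3 by both edgeR tests and DESeq2, where *Ctsz* was added (adjusted p = 0.0228 by the quasi-likelihood test). Median-of-ratios scaling lost *Ctsd* at 2 weeks post-HS (adjusted p = 0.0561) and added *Ctsc* at 72 h post-HS (1.02) and post-FT (1.00), and DESeq2 added *Ctsc* at 72 h post-HS. At 1 week post-FT 0 were higher when only the samples compared were fitted. The call of *Ctsc* between 72 h and 1 week post-FT was lost (0) with the samples compared only, columns scaled to 1 total, quantile normalization, both edgeR tests and DESeq2. The cause was not tested. Leaving out 1 sample gave 4 to 7 members higher and 0 to 1 lower at 72 h post-HS, 0 to 1 higher at 1 week and 2 to 4 at 2 weeks, and 4 to 6 higher and 0 to 1 lower at 72 h, 3 to 5 at 1 week and 4 to 5 at 2 weeks post-FT. For *Ctsc* between the FT times it gave 0 to 1. Where this leaves 1 sample at 1 week post-HS, that sample is assumed to vary like the other groups. The replicate block left 0 members called for FT against HS at 72 h, and elsewhere no pairing passed the rule given above.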

Other observations

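Other symbols of the cathepsin and cystatin families were in the table at low values. *Cts8* was at 0.165 to 3.25, *Ctsj* at 0 to 1.56 and *Ctsq* at 0 to 0.801 over the 20 samples, all cathepsins best known from the placenta. *Csta* was at 0.125 to 2.22 and *Cst13* at 0 to 1.25. The genes were chosen after their values were seen.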
